A study of Mus musculus with 40 samples.

Results

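The miR-15, miR-16, miR-195 and miR-497 family was followed in small RNA libraries from the hippocampal CA1 region of 40 mice, with 1 library per mouse. Its members were taken by name and comprised mmu-miR-15a-5p, mmu-miR-15b-5p, mmu-miR-15b-3p, mmu-miR-16-5p, mmu-miR-195a-5p and mmu-miR-497a-5p (the prefix is left out from here on), which are 6 of the 1978 mature miRNAs in the count table. The CamKIIδC TG mice, which carry extra calcium/calmodulin-dependent protein kinase II of the δC isoform and develop heart failure, were studied beside wild-type littermates. All mice had a C57Bl/6J background, both sexes were used, and tissue was collected after cervical dislocation. At an age of 3 months there were 9 TG and 5 wild-type control mice, and at 6 months 11 TG and 15 wild-type control mice. The labels of wild-type control mice 1 and 2 of the younger age contradict each other (wild-type in the title, TG in the genotype field), and both were kept as wild-type by their title. The promoter of the transgene is not given in the sources used here, and males and females were not identified per library.

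MicroRNAs are short RNAs that lower the output of mRNAs carrying a match to their seed, the stretch near the 5′ end that pairs with the target. The miR-15/16 family is expressed in most tissues, is transcribed from clustered hairpins, and is best known for repressing cell cycle regulators and the anti-apoptotic gene Bcl2. In the nervous system its members have been studied as brakes on cell survival and on neurotrophin expression.

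The sequences show how closely the members are related and why they are treated as 1 family. They are the mature sequences of RefSeq on GRCm38.p6, written 5′ to 3′, with the seed at bases 2 to 8 in capitals. All 6 members were matched by name.
miR-15a-5p: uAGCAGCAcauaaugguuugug
miR-15b-5p: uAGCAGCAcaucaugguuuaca
miR-16-5p: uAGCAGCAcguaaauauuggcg
miR-195a-5p: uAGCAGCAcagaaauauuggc
miR-497a-5p: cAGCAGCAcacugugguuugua
miR-15b-3p: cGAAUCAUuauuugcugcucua

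The first 5 share the seed AGCAGCA, which 10 of 1679 mature mouse miRNAs in the RefSeq table carry (0.596%). Over the whole mature sequence, seed included, the members were alike to different degrees. miR-16-5p and miR-195a-5p are identical at 19 of 21 positions, whereas miR-16-5p and miR-497a-5p are identical at 11 of 22. miR-15a-5p and miR-15b-5p are identical at 18 of 22 positions, and miR-497a-5p shares 17 of 22 with miR-15a-5p and 16 of 22 with miR-15b-5p. miR-15b-3p is the opposite arm of the miR-15b hairpin, has the seed GAAUCAU, and therefore belongs to the family by origin and not by seed. Both arms are shown in capitals in the hairpin, which lies at chr3:69009772-69009835 on the plus strand of GRCm38.
Mir15b: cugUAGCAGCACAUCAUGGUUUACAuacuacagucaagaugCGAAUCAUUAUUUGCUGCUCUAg

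The members come from 3 clusters of paired hairpins. Mir15a and Mir16-1 lie on the minus strand of chromosome 14, with the mature sequences at chr14:61632075-61632096 and chr14:61631936-61631957, inside the long noncoding gene Dleu2 and outside its annotated exons. Mir15b and Mir16-2 lie on the plus strand of chromosome 3 within an intron of Smc4, which encodes a condensin subunit, and the mature miR-16-5p of this copy is at chr3:69009918-69009939. Mir497 and Mir195a lie on the plus strand of chromosome 11, with miR-497a-5p at chr11:70234730-70234751 and miR-195a-5p at chr11:70235062-70235082, and no gene other than miRNAs was annotated over them. The 5p sequences within a cluster start 139, 143 and 332 bases apart. Because both miR-16 copies give the same mature sequence, miR-16-5p could not be assigned to chromosome 3 or to chromosome 14. Its count on the miR-16-2 precursor was at its lowest 97.3% of that on the miR-16-1 precursor in the same library.

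Library totals ranged from 2656368 to 36547011 counts, and were larger at 3 months (medians of 22455957 in wild-type control and 29499287 in TG mice) than at 6 months (14908612 and 13894826). The smallest 3 libraries, with 4238710 total counts or fewer, belonged to 6-month-old wild-type control mice 4 and 5 and to 6-month-old TG mouse 9, and results are given with and without them where they differ. A floor of 3 counts corresponded to 0.0956 to 2.32 CPM, a limit of counting error alone. The neuronal marker list (miR-124-3p, miR-9-5p, miR-128-3p and miR-138-5p) had a summed level of at least 165286 CPM in every library at 3 months in TG mice, and of at least 187829 CPM in the other groups. Nothing in the labels says whether the mice shared a litter or a preparation, so that the p-values measure the spread between these libraries.

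miR-16-5p was the most abundant member and miR-15b-3p the least. Levels are TMM-normalized CPM of the miRNA counts, and the members differ by only 1 base in length. Over the 4 groups the mean level of miR-16-5p was 253 to 368 CPM, that of miR-195a-5p 86.6 to 101 CPM, that of miR-497a-5p 14.1 to 16.9 CPM, that of miR-15a-5p 7.60 to 25.1 CPM, that of miR-15b-5p 4.70 to 7.63 CPM and that of miR-15b-3p 1.13 to 2.13 CPM. The order of miR-15a-5p, miR-497a-5p and miR-15b-5p was not fixed, because miR-15a-5p stood above miR-497a-5p in 3-month-old TG mice and below it in the other groups, and the range of miR-15a-5p overlapped with those of miR-497a-5p and miR-15b-5p in every group. The last 2 overlapped with each other except in 6-month-old TG mice, where miR-15b-5p (2.44 to 7.20 CPM) lay below miR-497a-5p (7.70 to 24.4 CPM). Of the summed level of the 5 members with the shared seed, miR-16-5p made up 66.9% ± 5.47 (SD, n = 11) in TG mice at 6 months and 70.2% ± 0.996 (SD, n = 5) in wild-type controls at 3 months, the lowest and highest group means. miR-195a-5p made up 21.6% to 25.9% on average. In TG mice the sum itself was 517 ± 291 CPM (SD, n = 9) at 3 months against 367 ± 153 CPM (SD, n = 11) at 6 months. The wild-type controls had 437 ± 171 CPM (SD, n = 5) and 395 ± 188 CPM (SD, n = 15) at these ages. The spread within each group was larger than these differences.

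**Figure D1:**
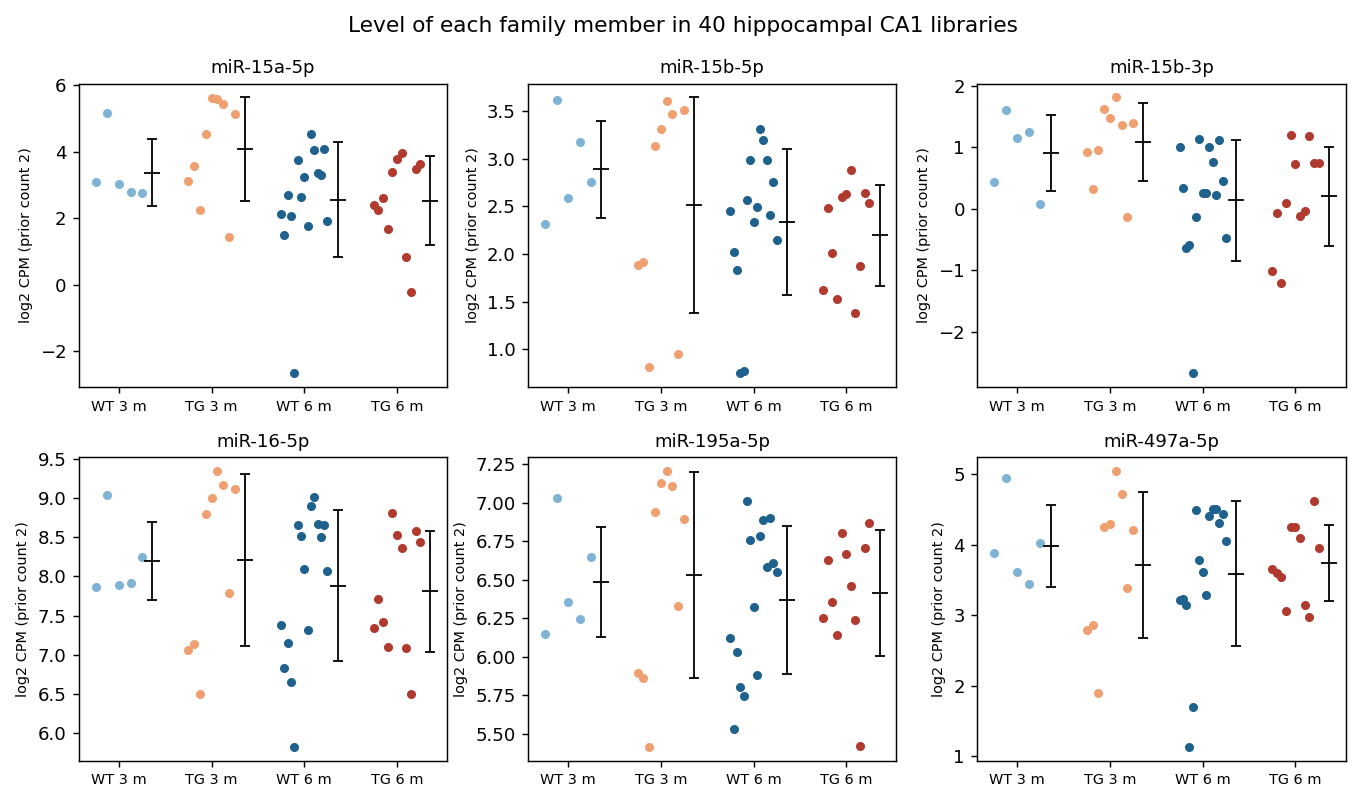
Level of the 6 members in each library, as log2 CPM with a prior count of 2 (vertical axis, a scale of its own in each panel), by genotype and age. Each point is 1 mouse, and the bar beside a group is its mean ± SD. miR-15a-5p is high in 5 of the 9 TG mice at 3 months, and 3-month-old wild-type control mouse 2 stands above the other wild-type control mice of its age for miR-15a-5p, miR-16-5p and miR-497a-5p.

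To ask which members changed with age in the heart failure model, TG mice at 6 months were compared with TG mice at 3 months. Both miR-15a-5p, made from the chromosome 14 cluster, and miR-15b-3p, the minor arm of the chromosome 3 hairpin, were called lower at 6 months. The other 4 members had smaller negative log2FC and did not pass the test. Of the 629 miRNAs tested 15.7% were called altered (adjusted p under 0.05 and absolute log2FC above 0.26), that is 8.27% of all tested as lower and 7.47% as higher, and the members contributed 2 of 6, both lower. All 6 members had a negative log2FC, with a median of −0.55 against −0.088 over all tested miRNAs. No member was called when limma was run on the RPM, where 92 miRNAs (14.6% of those tested) were called. The same held when the low-count filter was dropped, with 70 of 1621 miRNAs (4.32%) called. It also held with the log2 total count of the library as a covariate, with 71 of 629 miRNAs (11.3%) called. With 1 RUVr factor of unwanted variation in DESeq2, 4 members were called, all lower, among 302 miRNAs (48.0% of those tested). With 1 RUVs factor 251 miRNAs (39.9%) were called in DESeq2, among them miR-15a-5p and miR-15b-3p as lower and miR-497a-5p as higher, with a log2FC of 0.32 and an adjusted p of 0.0244. In this bulk tissue fewer cells of a type and less RNA per cell cannot be told apart.

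miR-15a-5p ranged from 2.53 to 48.9 CPM in 3-month-old TG mice (median 23.2) and from 0.700 to 15.5 CPM in 6-month-old TG mice (median 5.95). At 3 months mice 4, 5, 6, 7 and 9 were high, each above every 6-month-old TG mouse, and mice 1, 2, 3 and 8 lay within the 6-month range. All 11 of the 6-month-old mice were below the 3-month median, and the groups overlapped. miR-15a-5p was downregulated with a log2FC of −1.67 ± 0.49 (SE), a 3.19-fold lower level, with an adjusted p of 0.0234 in edgeR's quasi-likelihood test. The 5 TG mice with the high level were also those with the largest libraries, at 29499287 to 36547011 total counts against 13200774 to 25145705 in the remaining 4. With the log2 total count as a covariate the log2FC was −0.18 with an adjusted p of 0.846 in edgeR. In that fit 0 of 6 members were called, against 71 of all 629 miRNAs (11.3%). Without the shallow library the log2FC of miR-15a-5p was −1.59 with an adjusted p of 0.0323 in edgeR.

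miR-15b gives a mature miRNA from each arm of its hairpin, so that both are read from 1 precursor. miR-15b-3p ranged from 0.759 to 3.35 CPM in 3-month-old TG mice (median 2.41) and from 0.277 to 2.15 CPM in 6-month-old TG mice (median 0.906). These levels rest on 6 to 105 counts per library at 3 months and 2 to 31 at 6 months. Of the 3-month-old mice 5 were above every 6-month-old mouse, and all 11 older mice were below the younger median. The log2FC of miR-15b-3p was −0.94 ± 0.32 (SE), with an adjusted p of 0.0458 in edgeR's test, and it lost the call in 11 of the 20 fits that left out 1 TG mouse each. miR-15b-5p, the seed-bearing arm, ranged from 1.60 to 12.0 CPM at 3 months (median 8.61) and from 2.44 to 7.20 CPM at 6 months (median 5.44). Here too 5 younger mice exceeded all older mice, and the log2FC was −0.56 ± 0.34 (SE) with an adjusted p of 0.247 in edgeR.

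miR-16-5p, the bulk of the family, ranged from 90.1 to 648 CPM in 3-month-old TG mice (median 443) and from 90.2 to 447 CPM in 6-month-old TG mice (median 210). The lowest mice of both ages had nearly the same level, and 4 younger mice lay above the older range. Its log2FC was −0.53 ± 0.36 (SE) with an adjusted p of 0.304 in edgeR. The chromosome 11 pair changed least. miR-195a-5p ranged from 42.5 to 147 CPM at 3 months (median 119) and from 42.7 to 117 CPM at 6 months (median 88.0), with a log2FC of −0.18 (95% interval −0.62 to 0.26). miR-497a-5p ranged from 3.55 to 32.8 CPM at 3 months (median 18.3) and from 7.70 to 24.4 CPM at 6 months (median 12.5), with a log2FC of −0.17 (95% interval −0.79 to 0.46). For both members the 2 ages overlapped over most of their range.

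In wild-type control mice, the comparison that shows what the same period does without the transgene, no member was called altered. Here 0.152% of 660 miRNAs were called. Each of the 6 members again had a negative log2FC, with a median of −0.33 against −0.019 over all tested miRNAs, and 0 had an unadjusted p under 0.05 in edgeR. With 1 RUVr factor in DESeq2, 4 members were called lower, among 205 miRNAs (31.1%) called in all. With mice blocked by their replicate number in edgeR, 4 members were called lower among 250 miRNAs (37.9%). The 5 mice of 3 months had miR-15a-5p levels of 8.29, 35.8, 8.08, 6.78 and 6.67 CPM, in the order of their numbers. The 15 mice of 6 months ranged from 0 to 23.2 CPM with a median of 6.29, and the library at 0 was the shallow one of mouse 5, where the floor of 3 counts is 2.32 CPM. Mouse 2 was therefore the only 3-month-old wild-type control mouse above the 6-month range. The log2FC of miR-15a-5p was −0.58 ± 0.50 (SE) with an adjusted p of 0.579 in edgeR, and without mouse 2 it turned to 0.25. miR-15b-3p had levels of 1.2, 2.88, 2.05, 2.23 and 0.901 CPM at 3 months and 0 to 2.04 CPM (median 1.04) at 6 months. The value of 0 was again that of mouse 5, whose floor lies above this 6-month range. The log2FC of miR-15b-3p was −0.64 ± 0.33 (SE), with an adjusted p of 0.365 in edgeR, and it stayed negative without 3-month-old mouse 2, at −0.41.

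Mouse 2 was also the highest of the 3-month-old wild-type control mice for the other members. miR-16-5p had 233, 525, 237, 241 and 303 CPM at 3 months and 56.5 to 514 CPM (median 272) at 6 months. miR-195a-5p had 70.7, 131, 81.9, 75.6 and 99.97 CPM at 3 months and 46.1 to 129 CPM (median 93.5) at 6 months. miR-497a-5p had 14.6, 30.7, 12.1, 10.8 and 16.1 CPM at 3 months and 2.03 to 22.5 CPM (median 13.7) at 6 months. For miR-16-5p, miR-195a-5p and miR-497a-5p the log2FC was −0.14, −0.088 and −0.22, and without mouse 2 each was positive (0.14, 0.078 and 0.12). miR-15b-5p had 4.80, 12.1, 5.84, 8.85 and 6.58 CPM at 3 months and 1.52 to 9.79 CPM (median 5.29) at 6 months, with a log2FC of −0.44 that stayed negative without mouse 2, at −0.21.

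Whether TG and wild-type control mice differed at either age was asked next. At 3 months 0% of 695 miRNAs were called in edgeR, 7 had an unadjusted p under 0.05, and no member was among these. miR-15a-5p was nominally higher in TG mice, with a log2FC of 0.91 and a 95% interval of −0.43 to 2.25, since 3 TG mice exceeded every wild-type control mouse and 2 lay below all of them. Without wild-type control mouse 2 this log2FC was 1.80, and with the log2 total count as a covariate it was 0.043, neither called in edgeR. At 6 months 0% of 612 miRNAs were called in edgeR, 3 had an unadjusted p under 0.05, and again no member was among them. The genotype log2FC of miR-195a-5p at 6 months was 0.0095 with a 95% interval of −0.32 to 0.34, the narrowest of the family, and that of miR-15a-5p was −0.18 with an interval of −0.96 to 0.59.

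The age difference was then compared between the genotypes in an interaction test over the 4 groups. No member was called, 0% of 699 miRNAs were called in edgeR, and 14 had an unadjusted p under 0.05, with no member among them. For miR-15a-5p the interaction log2FC was −1.11 with a 95% interval of −2.60 to 0.39, and −1.93 without 3-month-old wild-type control mouse 2, where it was not called either. For miR-15b-3p it was −0.32 with an interval of −1.24 to 0.60. The age difference called for these 2 miRNAs in TG mice was thus not shown to differ from the change in wild-type control mice. Neither miRNA was called in TG mice once the log2 total count was a covariate. DESeq2 also called 0 members in both genotype comparisons and in the interaction. The age and genotype comparisons share groups of mice, and their log2FC are not independent of each other.

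**Figure D2:**
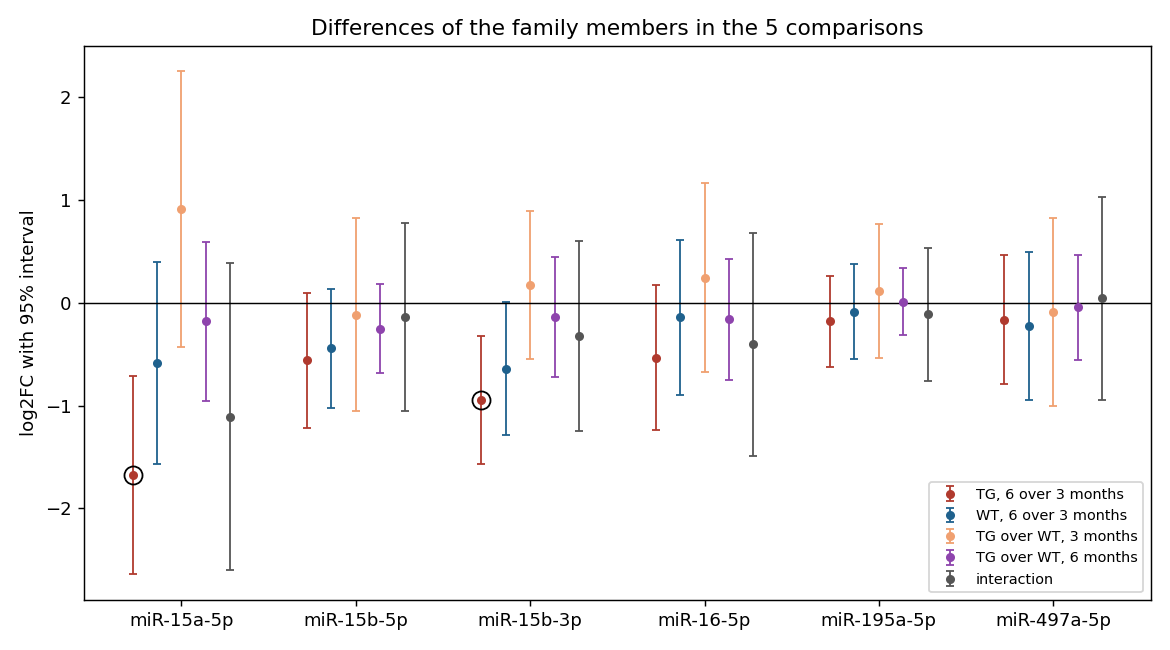
log2FC of each member in the 5 comparisons (vertical axis) with 95% intervals. Rings mark the called values, miR-15a-5p and miR-15b-3p in TG mice with age, and all other intervals include 0.

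Ratios of members within a library do not depend on the scaling between libraries and were used to compare the 2 arms of miR-15b, the chromosome 11 partners, and miR-15a-5p with miR-16-5p, of which the last cannot be assigned to 1 locus. The count of miR-15a-5p was 6.38% of that of miR-16-5p in 3-month-old TG mice (median, range 1.15% to 9.59%) and at 2.87% in 6-month-old TG mice (0.775% to 4.73%). The lowest value of the 6-month-old TG mice rests on 1 count of miR-15a-5p against 129 of miR-16-5p, in the shallow library of mouse 9. In wild-type control mice the medians were 3.41% at 3 months and 2.70% at 6 months. The mean log2 ratio differed by −1.13 between the ages in TG mice, with all 11 of the older mice below the mean of the younger. An exact permutation test gave p = 0.00438, and 0.0526 after adjustment over 12 tests, which misses the threshold. In wild-type control mice the difference was −0.42 (exact permutation adjusted p = 0.541). TG mouse 8 of 3 months stood apart from its group, with the ratio at 1.15%, and without it the difference in TG mice was −1.42 with an exact permutation adjusted p of 0.000318. That mouse was singled out from these same values. Of the 20 fits that left out 1 TG mouse each, 18 missed the threshold, with an exact permutation adjusted p of up to 0.112.

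No difference in the ratio of the miR-15b arms was shown. The median of miR-15b-5p over miR-15b-3p was 330% in 3-month-old and 400% in 6-month-old TG mice, a difference in mean log2 ratio of 0.62 (exact permutation adjusted p = 0.41). miR-195a-5p over miR-497a-5p, the chromosome 11 partners, differed by −0.15 in mean log2 ratio between the ages in TG mice (exact permutation adjusted p = 0.661). In none of the other comparisons was the adjusted permutation p of a ratio under 0.41.

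**Figure D3:**
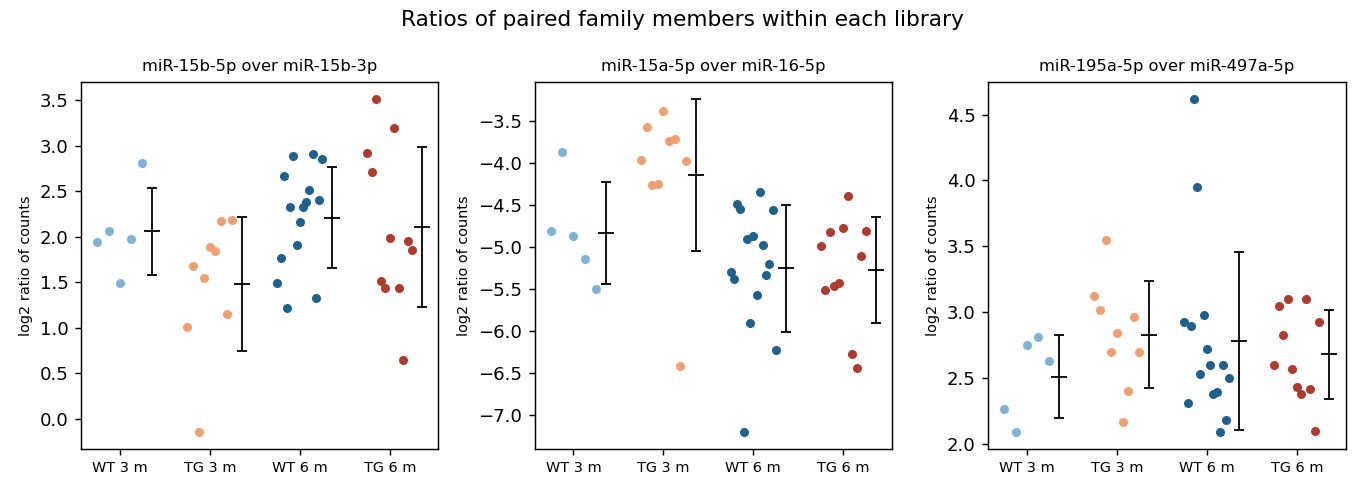
log2 ratio of the counts of 2 members within each library (vertical axis), with a pseudocount of 0.5, by genotype and age. Points are mice and bars are the mean ± SD. The ratio of miR-15a-5p over miR-16-5p is on average −4.14 in 3-month-old and −5.28 in 6-month-old TG mice, and TG mouse 8 of 3 months is at −6.41.

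The members varied strongly between mice of the same group. The SD of log2 CPM within groups was 1.52 for miR-15a-5p, larger than that of 99.6% of 699 miRNAs, whose median was 0.63. It was 0.90 for miR-16-5p, 0.88 for miR-497a-5p, 0.83 for miR-15b-3p and 0.79 for miR-15b-5p. miR-195a-5p was the steadiest, at 0.50, below the median miRNA. The same mice were high or low for most members, and the relations below were computed on deviations from the group means over 40 libraries, with 27 relations in the family and permutation within groups.

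miR-16-5p and miR-195a-5p, from different clusters, deviated together with Pearson r = 0.94 and Spearman rho = 0.92, and r was 0.94 without the 2 libraries farthest from the median. miR-16-5p and miR-497a-5p had r = 0.93 and rho = 0.94, with r = 0.90 without 2 libraries. For miR-15a-5p and miR-16-5p, r and rho were 0.86 and 0.87, with r = 0.84 without 2 libraries. Each of these had a permutation p of 1e-05, the smallest that the permutations can give, and an adjusted p of 1.42e-05 for r and 1.8e-05 for rho. The within-group r of miR-16-5p with miR-195a-5p was 0.89 to 0.99 over the 4 groups. The lowest r was that of miR-15b-3p with miR-195a-5p, with r = 0.41 and rho = 0.50 (permutation p = 0.00792 and 0.00104, adjusted p = 0.00855 and 0.00122), and r = 0.38 without 2 libraries. The lowest rho was that of miR-15a-5p with miR-15b-3p, with rho = 0.46 and r = 0.59 (permutation p = 0.00428 and 0.00113, adjusted p = 0.00462 and 0.00133), and r = 0.53 without 2 libraries. Values of 1 library share its depth and its total, since CPM are parts of a whole. Outside the family, miR-124-3p deviated with miR-16-5p at r = 0.96 and rho = 0.96, so such values were not particular to the members. Of 357 other miRNAs averaging 10 CPM or more, 73 had an r above 0.80 with miR-16-5p over the 40 libraries. A further 72 had an r below −0.80. The permutation p-values are set against no relation, and not against this background.

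Members that deviated together also followed library size. The r with the log2 total count was 0.75 for miR-15a-5p (rho = 0.62, permutation p = 1e-05 and 7e-05, adjusted p = 1.42e-05 and 9e-05), and r was 0.59 without the 2 libraries farthest from the median. For miR-16-5p r was 0.71 and rho 0.65 (permutation p = 1e-05 and 2e-05, adjusted p = 1.42e-05 and 3.18e-05), and r was 0.62 without 2 libraries. Within groups of at least 6 mice, miR-15a-5p had an r with the log2 total count of 0.92 in 3-month-old TG, 0.71 in 6-month-old wild-type control and 0.82 in 6-month-old TG mice. The part of library size in the age differences was not tested beyond the covariate given above.

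The opposite arm of miR-195a went the other way. miR-195a-3p is printed here because it lies on the same hairpin as miR-195a-5p, and its mature sequence at chr11:70235100-70235121 is shown with its seed in capitals.
miR-195a-3p: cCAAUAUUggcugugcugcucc

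miR-195a-3p ranged from 27.8 to 158 CPM in 3-month-old TG mice (median 43.8) and from 53.0 to 290 CPM in 6-month-old TG mice (median 141). Its deviations were opposed to those of miR-16-5p, with r = −0.95 and rho = −0.93 (permutation p = 1e-05 for each, adjusted p = 1.42e-05 and 1.8e-05), and r = −0.95 without 2 libraries. The group r ran from −0.98 to −0.82. Mice that were high for miR-16-5p thus tended to be low for miR-195a-3p in each group. miR-195a-3p also fell with the log2 total count, with r = −0.73 and rho = −0.72. The permutation p was 1e-05 and 2e-05, the adjusted p 1.42e-05 and 3.18e-05, and r was −0.70 without 2 libraries. The part of library size in this opposition was not tested. The log2FC of miR-195a-3p with age was 0.80 in TG mice (adjusted p = 0.166) and 1.01 in wild-type control mice (adjusted p = 0.301), neither called in edgeR. miR-16-1-3p also opposed miR-16-5p, with r = −0.72 and rho = −0.74 (permutation p = 1e-05 for each, adjusted p = 1.42e-05 and 1.8e-05) and r = −0.75 without 2 libraries. Its group r ran from −0.82 in 6-month-old TG mice to only −0.16 in 3-month-old wild-type control mice.

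**Figure D4:**
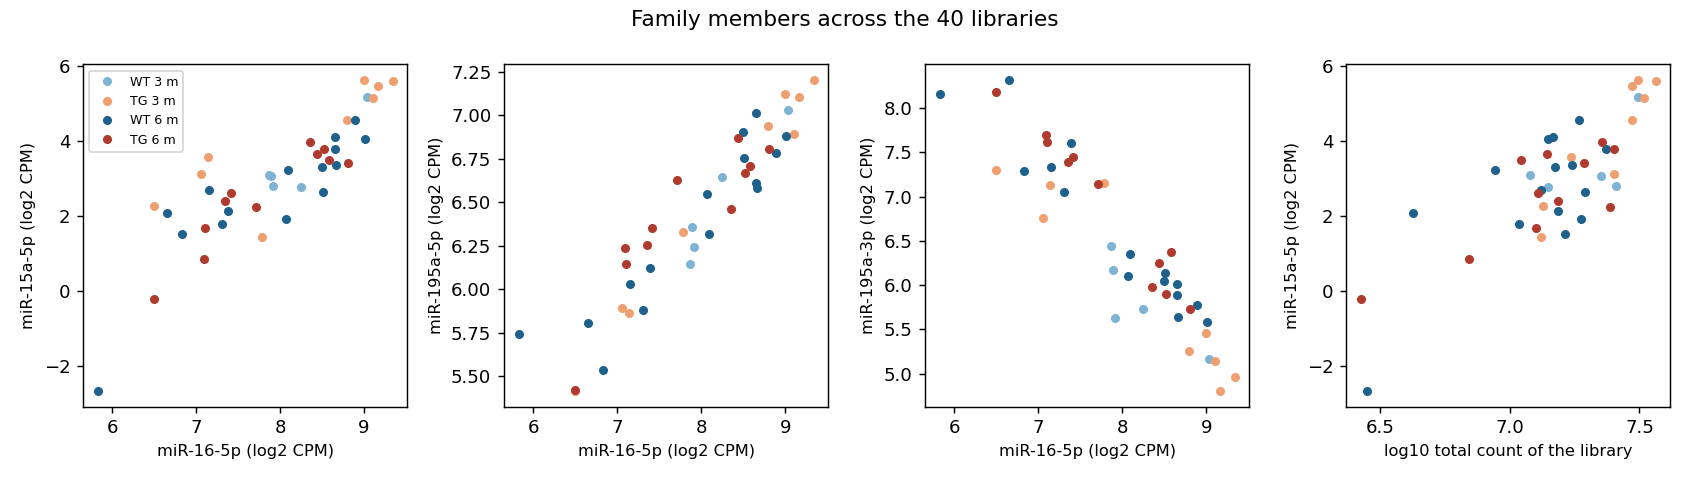
From left to right, miR-15a-5p, miR-195a-5p and miR-195a-3p against miR-16-5p (log2 CPM with a prior count of 2 on both axes), and miR-15a-5p against the log10 total count of the library. Each point stands for 1 of 40 mice, coloured by genotype and age. The 5p members rise with miR-16-5p, miR-195a-3p falls with it, and miR-15a-5p is high in the largest libraries.

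The miRNAs most like each member were sought among those with a mean of at least 10 CPM, by Pearson r of log2 CPM over 40 libraries. miR-15a-5p was most like miR-26b-5p (r = 0.95), miR-29b-3p (0.92) and miR-338-3p (0.90). For miR-16-5p they were miR-30b-5p (0.98), miR-93-5p (0.97) and miR-126a-5p (0.96), and for miR-195a-5p miR-16-5p, miR-126a-5p (0.92) and miR-384-3p (0.91). miR-497a-5p was most like miR-154-5p (0.94), miR-15b-5p most like miR-342-3p (0.90), and miR-15b-3p most like miR-27b-3p (0.74). These values describe the libraries and have no test.

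Among the other arms of the hairpins, 2 of 5 passed the low-count filter in each comparison of ages and 0 were called. Of 8 further miRNAs with the same or a related seed or locus, miR-322-5p, miR-195b, miR-6342, miR-6353 and miR-6419 carry AGCAGCA and miR-503-5p carries AGCAGCG. Only miR-322-5p and miR-503-5p were tested in both genotypes, and none was called. Printed for comparison, miR-322-5p lies at chrX:53054306-53054327 on the minus strand.
miR-322-5p: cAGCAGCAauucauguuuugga

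miR-322-5p had a log2FC with age of −0.53 in TG mice (adjusted p = 0.307 in edgeR) and −0.29 in wild-type control mice (adjusted p = 0.747 in edgeR), at mean levels of 2.47 to 3.66 CPM. It deviated with miR-16-5p (r = 0.84, rho = 0.90, permutation p = 1e-05 for each, adjusted p = 1.42e-05 and 1.8e-05), and r was 0.83 without 2 libraries.

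Since miR-15 and miR-16 are abundant in blood cells, markers of other cell types were read in the same comparison of TG mice. Of 7 erythroid miRNAs, 1 was higher and 3 were lower at 6 months, and the members of the list did not share a direction: miR-451a had a log2FC of 0.68 (adjusted p = 0.0067 in edgeR) and miR-144-3p one of −0.98 (adjusted p = 0.0335 in edgeR). The summed erythroid level was 694 to 2709 CPM in 3-month-old and 978 to 2084 CPM in 6-month-old TG mice. Over the 40 libraries, the r of log2 CPM with miR-16-5p differed in sign within the erythroid list, from −0.86 for miR-486a-5p to 0.76 for miR-144-5p, with miR-451a at −0.21. It also differed in sign within the neuronal list, from −0.72 for miR-128-3p and −0.32 for miR-9-5p to 0.82 for miR-138-5p and 0.94 for miR-124-3p, and these values are given as a description. Of 3 oligodendrocyte miRNAs 2 were lower at 6 months, among them miR-338-3p (log2FC = −1.02, adjusted p = 0.0157 in edgeR), and the summed level was 1193 to 2307 CPM at 3 months and 743 to 1356 CPM at 6 months. Both choroid plexus miRNAs were higher at 6 months, with a median log2FC of 0.98 and a summed level of 290 to 749 CPM at 3 months and 638 to 1023 CPM at 6 months. The endothelial list had 1 of 2 higher (5066 to 9766 CPM at 3 months, 7119 to 11719 CPM at 6 months) and the neuronal list 1 of 4 higher (165286 to 317132 CPM and 196665 to 363143 CPM). The smooth muscle list (3774 to 9558 CPM and 3759 to 13468 CPM) and the microglia and leukocyte list (18.7 to 69.8 CPM and 24.5 to 70.4 CPM) had 0 called in edgeR. No marker was at 0 throughout a group. The part of these cell types in the levels of the family was not tested.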

How the data were processed

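Small RNA libraries were made from CA1 RNA (300 ng) with the NEBNext small RNA kit. The authors trimmed adapters with cutadapt (submitters' processing notes, version 2.8), aligned and counted reads with mirdeep2 on mm10 and miRBase, and deposited raw counts for each pair of mature miRNA and precursor. The authors also deposited RPM, used here for 1 alternative. Each miRNA was represented by its precursor of highest total, and spike-in oligos (0.0851% to 0.252% of each library) were left out. The 2 groups of a comparison (all 4 for the interaction) were fitted in edgeR (4.0.16): filterByExpr with a minimum count of 10, TMM, robust quasi-likelihood F test and Benjamini-Hochberg adjustment over all tested miRNAs. Ratios were compared with two-sided permutation tests (scipy 1.17.1), exact where either group had fewer than 10 mice and otherwise with 100000 resamples. Alternatives included DESeq2 (version 1.42.0), limma (version 3.58.1), factors of unwanted variation, other normalizations and fewer mice. The test was checked on simulated counts, drawn for each miRNA on its own. Such counts lack the shared variation between libraries seen here, which the check therefore does not cover. None of 206 library pairs within groups was a copy. Members, lists and tests were chosen with earlier results of these data known. All members are named, with likeness ranked by r.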

Additional observations from a re-analysis of the deposited data

Results flagged for a closer look

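In 3-month-old wild-type control mice, mouse 2 lay far above the other 4 for 3 members. Its gap to the next mouse made up 0.945 of the range of the group for miR-15a-5p CPM, 0.762 for miR-16-5p and 0.730 for miR-497a-5p. Mouse 2 also had the largest library of its group, at 31304284 total counts against 12006095 to 25728981 in the others. Its genotype field reads TG, as that of mouse 1 does. In 3-month-old TG mice, mouse 8 was far below the others in the log2 ratio of miR-15a-5p over miR-16-5p, with a gap of 0.711 of the range. Mouse 3 was the lowest in that of miR-15b-5p over miR-15b-3p, with a gap of 0.498. The ratio of mouse 3 rests on 9 counts over 10 counts, so that counting error weighs on it. Of 18 groups of values examined 5 had such a gap, and the limit used gives about 1 in 20 for independent, normally distributed values. The groups are not independent, since 3 of the 5 gaps come from mouse 2 and the ratios reuse the members' counts. The count therefore cannot be set against that rate.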

How the results depend on the processing

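In TG mice with age, 2 members were called. This number was 0 when all miRNAs were kept regardless of counts, when limma was run on the deposited RPM, and with the total count as a covariate, 1 with counts summed over precursors, 4 with a RUVr factor in DESeq2, and 3 with a RUVs factor, of which miR-497a-5p was higher. Over all miRNAs the number called was 302 with RUVr, 251 with RUVs, 243 with RUVg and 124 with the replicate block, against 99. It was 70 without the low-count filter, 92 with limma, 71 with the covariate and 95 with summed counts. Members called were 0 to 2 when 1 TG mouse was left out, with 72 to 131 miRNAs called in all. They were 0 without 3-month-old mouse 5 or 6, where miR-15a-5p had an adjusted p of 0.0547 and 0.0520 in edgeR. Over all alternatives miR-15a-5p stayed negative in this comparison. In wild-type control mice 4 members were called with RUVr and 4 in the fit with a replicate block, where miR-15a-5p had a log2FC of −1.66, and over all miRNAs the number called was 205 and 250, against 1. Same-numbered mice deviated together (r over 0.1) in 7 of 9 TG and 2 of 5 wild-type control pairs. The labels do not pair mice by number, and whether same-numbered mice share more than a number was not tested. The block left 2 members called in TG mice. The interaction and both genotype comparisons had 0 members called under all alternatives run. There miR-15a-5p ran from 0.75 to 1.80 between genotypes at 3 months, and from −1.93 to −0.93 in the interaction, with 1 wild-type control mouse left out. Without mice 1 and 2 the values were 1.83 and −2.04.

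Directions turned as follows. In TG mice with age, a RUVs factor gave 0.034 for miR-16-5p, 0.12 for miR-195a-5p and 0.32 for miR-497a-5p, and a RUVg factor from spike-in oligos gave 0.096 and 0.28 for the last 2. With the total count as a covariate the values were 0.21 for miR-15b-5p, 0.24 for miR-16-5p, 0.27 for miR-195a-5p and 0.45 for miR-497a-5p, and without 3-month-old mouse 6 miR-497a-5p was at 0.039 (range −0.30 to 0.039 with 1 TG mouse left out). In wild-type control mice with age, RUVs gave 0.19, 0.11 and 0.13 for miR-16-5p, miR-195a-5p and miR-497a-5p. Without mice 1 and 2, or with both counted as TG, miR-15a-5p was at 0.30 and these 3 at 0.097, 0.0058 and 0.15. Without mouse 2 the 4 values were 0.25, 0.14, 0.078 and 0.12, against lowest values of −0.77, −0.24, −0.18 and −0.36 with another mouse left out, and with the covariate they were 0.070, 0.29, 0.14 and 0.19. Between genotypes, miR-15b-3p at 3 months was −0.15 with the covariate, and miR-15a-5p at 6 months was 0.093 with RUVs and 0.16 with RUVg. The ratio of the miR-15b arms in wild-type control mice was −0.11 with a pseudocount of 5, and miR-195a-5p over miR-497a-5p between genotypes at 6 months was 0.16 without the shallow libraries. The log2 ratio of miR-15a-5p over miR-16-5p in TG mice was −0.88 with a pseudocount of 5. It ran from −1.42 to −1.02 with 1 mouse left out, and passed the threshold without 3-month-old mouse 8 or 6-month-old mouse 7 (−1.22). The cause was not tested. The alternatives with the covariate, without the shallow libraries and without single TG mice were chosen after seeing the data. Low counts limit miR-15b-3p.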

Other observations

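The pattern across mice was also seen in miRNAs outside the family. Of 357 miRNAs other than the members that averaged 10 CPM or more, 73 had an r above 0.80 with miR-16-5p over the 40 libraries and 72 had an r below −0.80. A RefSeq sequence was matched for 308 (86.3%). The median GC content was 45.5% in the first set and 54.5% in the second, and over the 308 miRNAs GC content and the r with miR-16-5p were related with Pearson r = −0.29 and Spearman rho = −0.33, a description across miRNAs, which are not independent replicates. Highest on the opposed side was miR-5099 (r = −0.95). miR-16-5p and miR-195a-3p have GC contents of 45.5% and 54.5%. However, miR-497a-5p (r = 0.91) and miR-16-1-3p (r = −0.73) both have 50.0%, and miR-15b-3p, at 36.4%, had an r of 0.59. The part of GC content in this pattern was not tested.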
